A study of Mus musculus with 6 samples.

Results

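*Tmcc3* on mouse chromosome 10 held 44 of the 18333 differentially methylated regions (DMRs) that separated lung endothelial cells (EC) of infant and young adult mice. Its DMRs are the listed regions whose midpoint lay inside the gene body, chr10:94311949-94590954 on the plus strand of mm10, and they are numbered here from 1 to 44 in the direction of transcription. Methylation was lower in young adult EC in 40 of them (90.9%) and higher in 4. Over the whole list, 45.9% of the DMRs lost methylation, and of the 12175 DMRs inside genes 57.5% did. The gene was singled out for this number of losses, and each DMR was selected on the difference between the same samples, so the counts and levels are descriptions and carry no test.

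EC were sorted from the lungs of C57BL/6N mice, which the study's methods describe as female. The infant group had 3 samples, from mice aged 8 to 10 days, and the young adult group had 3, from mice aged 8 to 12 weeks. The labels name no transgene or treatment in either group. The sort kept living CD31+ CD34+ cells without the markers PTPRC, LYVE1, LY76 and PDPN, and so left out leukocytes, lymphatic EC and erythroid cells. DNA methylation was measured by T-WGBS, a form of bisulfite sequencing of the whole genome from transposase-cut DNA, in which unmethylated cytosines are converted and the methylated share of the reads at each CpG is counted. The list gives 1 mean per DMR and age group. It holds no expression values, so the cell type could not be checked here against marker genes. Values per sample were not analysed here, so no level below has a replicate error, the depth behind it is unknown, and the order of 2 DMRs with close means cannot be settled. A group mean of 50% could come from DNA that was methylated in part of the cells or on part of the CpGs, and a change in the mix of cells that passed the sort cannot be told apart from a change within cells.

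TMCC3 is a membrane protein of the endoplasmic reticulum (ER) with coiled-coil domains. It sits at the junctions where ER tubules meet, where it binds atlastins, the GTPases that fuse tubules, and proteins of its family bind the adaptor proteins called 14-3-3. Methylation within introns commonly falls where enhancers or internal promoters become active and is commonly high elsewhere in a transcribed gene. This is background, and enhancer marks and RNA were not used here.

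The curated RefSeq annotation gave *Tmcc3* 6 transcripts with 6 start sites, all sharing the last 3 exons. The longest, NM_001359762, starts at position 94311949 and has 5 exons, and its coding sequence begins in exon 2, 119 kb downstream. NM_172051 starts 203 kb further into the gene, at 94514857, and brings its own first coding exon. The other 4 transcripts start at 94550872, 94550920, 94575257 and 94576263 and begin their coding sequence in the shared exon. The proteins of 461, 477 and 446 residues therefore differ at the N-terminus. By the longest transcript, 37 DMRs (84.1%) lay in intron 2, 5 in intron 1, 1 in exon 3 and 1 in intron 4. By NM_172051, 27 DMRs (61.4%) lay in its intron 1, and 15 lay before its start.

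The sequences of the DMRs with the 3 largest losses, of the DMR with the lowest levels and of the DMR with the largest gain show how few CpGs carry these differences. They were read from GRCm38.p6, the assembly also called mm10, from the C of the first CpG to the G of the last, with every CpG in capitals.
DMR 25, the largest loss, chr10:94525875-94526066, plus strand: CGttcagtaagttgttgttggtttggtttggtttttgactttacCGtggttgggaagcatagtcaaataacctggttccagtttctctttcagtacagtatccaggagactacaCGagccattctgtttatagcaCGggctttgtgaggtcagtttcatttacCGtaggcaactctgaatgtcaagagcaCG
DMR 17, the second loss in size, chr10:94517549-94517608, plus strand: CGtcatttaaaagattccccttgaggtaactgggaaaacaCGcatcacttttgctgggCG
DMR 26, the next loss in size, chr10:94526980-94527128, plus strand: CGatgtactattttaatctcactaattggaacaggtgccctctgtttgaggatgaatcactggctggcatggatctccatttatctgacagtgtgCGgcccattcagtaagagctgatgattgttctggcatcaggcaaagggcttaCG
DMR 10, the lowest level in both groups, chr10:94479753-94479924, plus strand: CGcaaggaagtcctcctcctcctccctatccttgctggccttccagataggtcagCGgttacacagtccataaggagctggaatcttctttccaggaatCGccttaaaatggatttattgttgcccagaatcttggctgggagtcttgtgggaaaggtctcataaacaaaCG
DMR 6, the largest gain, chr10:94442363-94442407, plus strand: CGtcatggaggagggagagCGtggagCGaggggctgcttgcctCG

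DMR 25, with 6 CpGs in 192 bp, was at 67.7% in infant EC and at 8.19% in young adult EC, a loss of 59.5 percentage points. DMR 17 went from 85.2% to 26.7% over 3 CpGs in 60 bp. DMR 26 went from 80.8% to 25.95%, a loss of 54.8 points. All 3 were mostly methylated in infant EC and lay within 15 kb after the NM_172051 start. DMR 10 was already low in infant EC, at 17.4%, and was nearly free of methylation in young adult EC, at 0.918%. DMR 6 packed 4 CpGs into 45 bp and went the other way, from 28.9% to 58.2%. It was the only member whose methylation at least doubled, to 201% of its infant level.

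Over the 44 DMRs, the median methylation was 64.6% in infant EC and 24.9% in young adult EC, and the median difference was -35.3 points. Among the 40 losses, infant levels ranged from 17.4% to 93.0% (median 64.7%), and young adult levels from 0.918% to 70.9% (median 23.7%). The 8422 losses of the whole list had medians of 61.5% and 25.4%. The median loss of *Tmcc3* DMRs was -36.4 points, beside -32.5 points over all losses, and 35% of them against 20.3% of all losses reached 40 points. The losses of *Tmcc3* thus lay in the range of the list, with a somewhat larger share of big differences. The plot of both group means shows them inside the cloud of all losses.

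**Figure D1:**
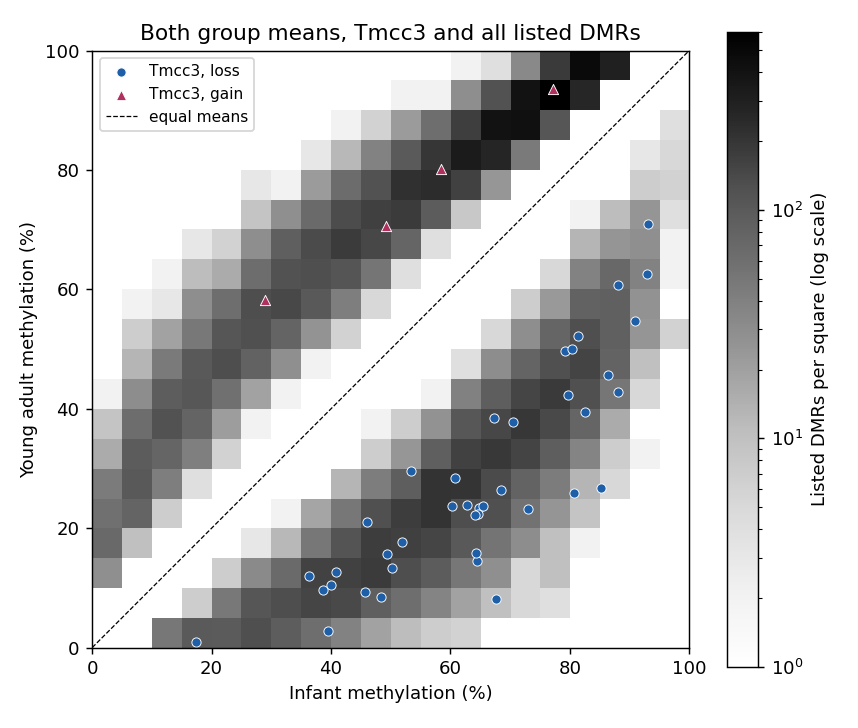
Infant mean (x axis, %) against young adult mean (y axis, %) of each DMR. Grey squares count all 18333 listed DMRs in steps of 5 points on a log scale, blue circles are the 40 losses of *Tmcc3* and red triangles its 4 gains. The losses spread along the whole lower cloud, from DMR 10 at 17.4% and 0.918% to DMR 36 at 93.0% and 70.9%, and the empty band beside the dashed line of equal means is the minimum difference of 10% set by the list.

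The level that remained in young adult EC went with the infant level. The 10 losses below 50% in infant EC had a median of 10.04% in young adult EC, and 9 of them were under 20%. The 17 losses that began between 50% and 75% had a median of 23.4%. The 13 that began at 75% or more had a median of 49.7%, and 5 of these kept more than 50%. Pearson's r between the 2 means was 0.85 over the 40 losses and 0.87 over all 8422. The points share the samples, and the minimum difference that a DMR must have shapes the relation, so r is only a description. Most losses were partial in this sense, since 6 of the 40 ended under 10% and 14 (35%) under 20%. The whole list was alike, as 1415 of its 8422 losses ended under 10% and 3208 (38.1%) under 20%. Partial loss was thus not particular to *Tmcc3*.

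Positions along the gene were uneven, as the map of the 44 DMRs shows. DMRs closer than 10 kb to each other formed 6 runs, 5 small ones before the NM_172051 start and 1 long one after it. The gap between the long run and the run before it, 10851 bp, was only just over this limit. Other limits were not tried. The last run spanned 66.5 kb, from 94516501 to 94582995, and held 29 DMRs with 132 CpGs. All 29 were losses. The first 203 kb held the other 15 DMRs, 11 losses and all 4 gains. Losses per 100 kb came to 5.42 before the NM_172051 start and to 38.1 after it. Per 1000 CpGs of the sequence they came to 4.07 and 26.2, so both ratios were of a similar size. Inside DMRs lay 11.9% of the CpGs after this start and 2.18% of those before it, and 5.01% in the whole gene (191 of 3809). The NM_172051 start is 1 of 6, and the contrast depends on which is taken. At the NM_001359761 start, 239 kb into the gene, 30 losses lay before and 10 after. Which CpGs had enough coverage to be tested was not analysed here.

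**Figure D2:**
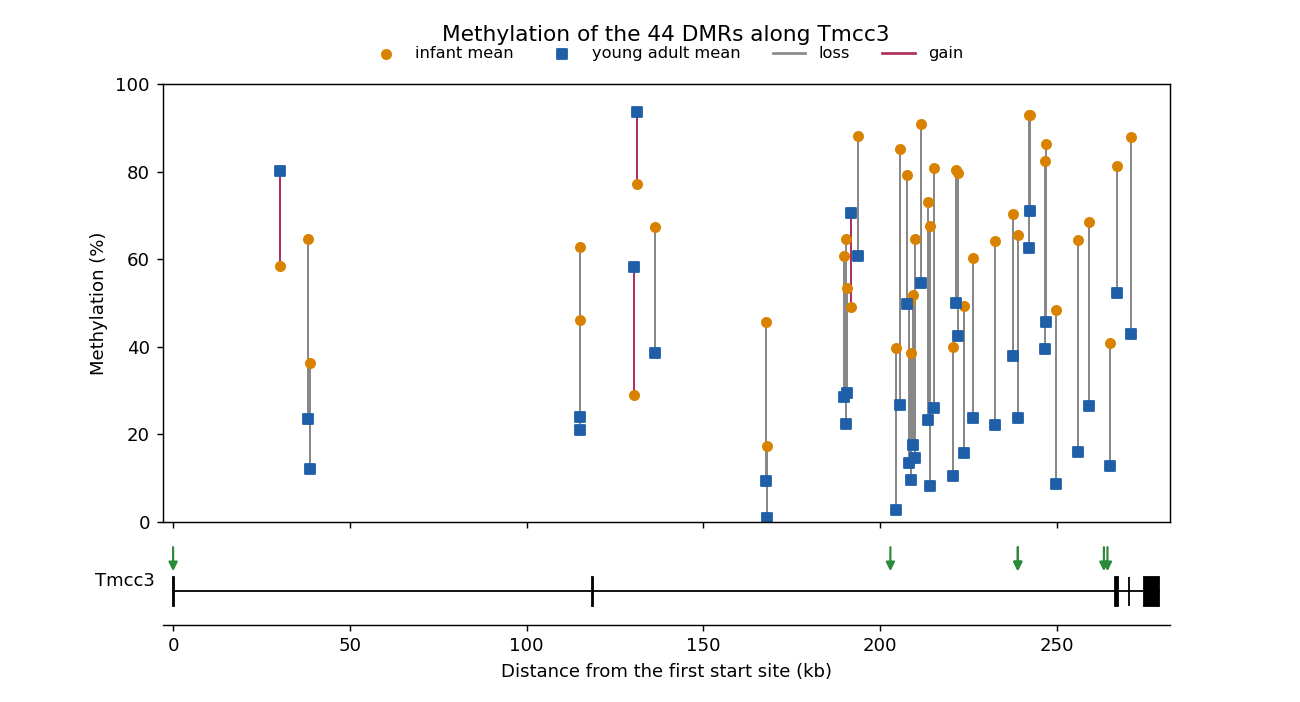
Methylation (y axis, %) of the 44 DMRs by distance from the first start site (x axis, kb). Orange circles are infant means, blue squares young adult means, grey lines losses and red lines gains. Below, black boxes are the exons of NM_001359762 and green arrows the 6 start sites. From 204.6 kb on, every blue square lies under its orange circle.

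The first run, in intron 1, lay 30.2 to 38.8 kb from the first start site. DMR 1, at chr10:94342031-94342348, gained from 58.4% to 80.1% over 5 CpGs. After 7766 bp, DMR 2 lost from 64.7% to 23.4%. Its neighbour DMR 3, 511 bp away, lost from 36.3% to 11.95%. A gain and losses thus stood side by side in the same intron. The next DMRs followed after the widest gap of the gene, 76092 bp. DMR 4 (45.99% and 20.997% in infant and young adult EC) and DMR 5 (62.7% and 23.9%), separated by 82 bp, were the last of intron 1.

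Intron 2 opened with a pair of gains. DMR 6 has been described, and 840 bp after it DMR 7 went from 77.3% to 93.6%, the smallest difference of all members (16.3 points) and the highest young adult level. DMR 8, 4841 bp on, lost from 67.3% to 38.5%. This run was the only one in which gains outnumbered losses, 2 to 1. Near 168 kb lay DMR 9, which went from 45.6% to 9.32%, and, 54 bp after it, DMR 10. Both were at most intermediate in infant EC and under 10% in young adult EC.

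The fifth run, 190 to 194 kb from the first start site, held 5 DMRs. DMR 11 went from 60.8% to 28.4%, DMR 12 from 64.7% to 22.4% and DMR 13 from 53.3% to 29.5%. DMR 12 was the narrowest member, with 4 CpGs in 19 bp. DMR 14 broke the series of losses with a gain from 49.1% to 70.6%. The last of the run, DMR 15, fell from 88.1% only to 60.7%. After a gap of 10851 bp that contains the NM_172051 start and its CpG islands, the long run began.

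**Figure D3:**
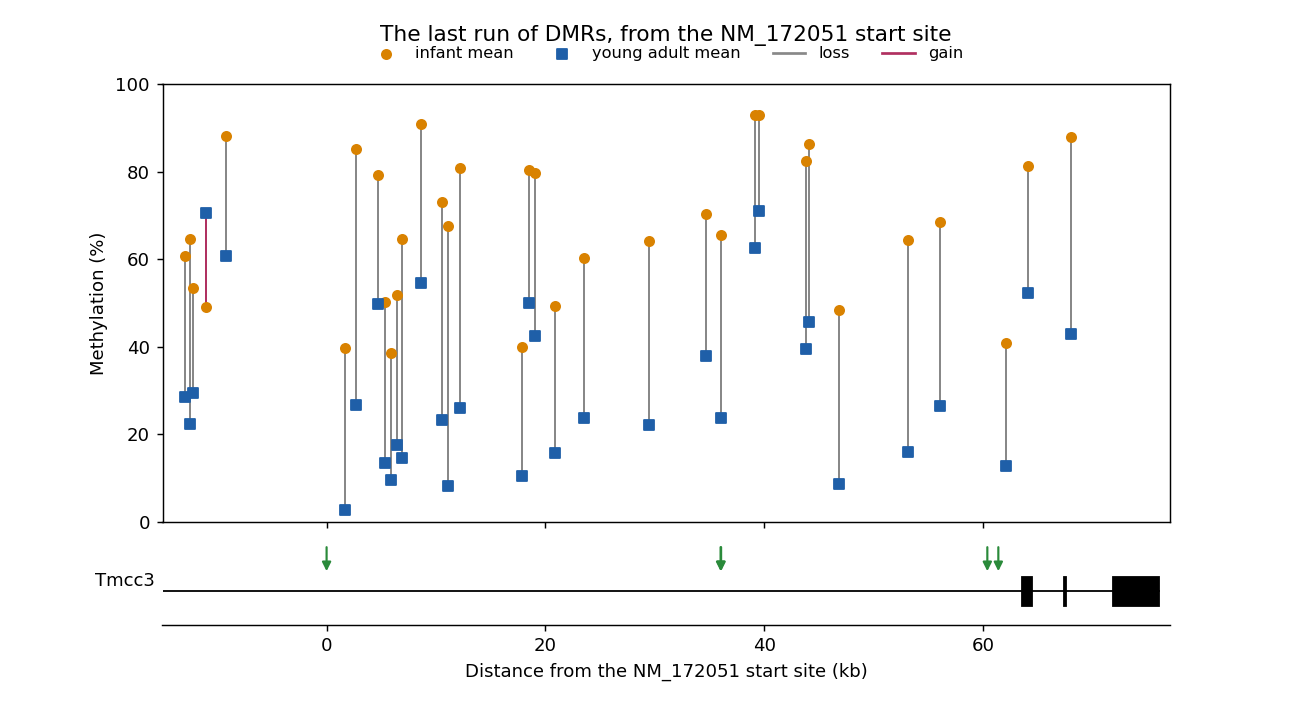
Methylation (y axis, %) by distance from the NM_172051 start site (x axis, kb), with infant means in orange, young adult means in blue, grey lines for losses and a red line for the gain. Green arrows are start sites and black boxes exons. The 29 DMRs after 0 are all losses, and they stand most densely in the first 15 kb.

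Of the long run, 11 DMRs lay in the first 15 kb, with a median infant level of 67.7% and a median young adult level of 17.6%. DMR 16, the first, had a midpoint 1722 bp after the start and went from 39.6% to 2.75%. After DMR 17 came DMR 18, which went from 79.2% to 49.7%. DMRs 19 to 22 lay close together and fell together from 50.3%, 38.6%, 51.9% and 64.5% to 13.3%, 9.59%, 17.6% and 14.4%, and only 27 bp parted DMRs 21 and 22. Between such low neighbours DMR 23 went from 91.0% to 54.6%. The stretch ended with 3 large losses in a row, DMR 24 (73.0% to 23.2%), DMR 25 and DMR 26. Of the 5 largest losses of the gene, all 5 lay in these 15 kb, DMR 22 (50.1 points) and DMR 24 (49.9 points) included.

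The next 30 kb of the run held 12 DMRs with more methylation left, a median of 38.6% in young adult EC from 75.1% in infant EC. DMR 27 was low in both groups, at 39.9% and 10.5%. DMRs 28 and 29 were near 80% in infant EC and kept 49.97% and 42.4%. DMR 30, the widest member with 799 bp and 6 CpGs, went from 49.3% to 15.7%. DMRs 31, 32 and 33 followed at wider spacing, with 60.2%, 64.1% and 70.4% in infant EC and 23.7%, 22.2% and 37.8% in young adult EC. DMRs 35 and 36 were the most methylated of all in infant EC, at 92.9% and 93.0%, and kept 62.5% and 70.9%. DMRs 37 and 38, 145 bp apart, went from 82.5% to 39.4% and from 86.3% to 45.7%. These bounds of 15 and 45 kb were set after the positions had been seen.

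The final 6 DMRs were spread over the last stretch and led into the shared exons. DMR 39 had the most CpGs, 9 in 357 bp, and went from 48.4% to 8.48%. DMR 40 went from 64.3% to 15.8% and DMR 41 from 68.5% to 26.4%, both in intron 2. DMR 42, 660 bp after the last start site, went from 40.9% to 12.7%. DMR 43, chr10:94578925-94578976, was the only one within an exon shared by the transcripts. Its 52 bp are coding in all 6 of them, and it went from 81.4% to 52.2%. DMR 44, in intron 4 at chr10:94582782-94582995, was the last, and its 7 CpGs went from 88.0% to 42.8%. The last exon, which holds 74 CpGs, had no DMR.

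The 2 start sites rich in CpGs had no DMR beside them. The sequence within 1 kb of the first start site held 75 CpGs and 2 CpG islands, the longer of 821 bp. The nearest DMR to it lay 30.2 kb away. Within 1 kb of the NM_172051 start were 127 CpGs and 2 CpG islands, the longer of 1146 bp, and no listed DMR. Absence from the list does not give the methylation there, which was not analysed here. The other 4 start sites had 26 to 34 CpGs within 1 kb and no island. DMR 34 lay across the start of NM_001359761 and ended just before that of NM_001359760. Its methylation was 65.4% in infant EC and 23.7% in young adult EC over 5 CpGs, of which 2 precede the start and 3 lie in the noncoding beginning of the transcript. The 250 bases before the start are shown with the part that belongs to the DMR in capitals.
Upstream of NM_001359761, chr10:94550622-94550871, plus strand: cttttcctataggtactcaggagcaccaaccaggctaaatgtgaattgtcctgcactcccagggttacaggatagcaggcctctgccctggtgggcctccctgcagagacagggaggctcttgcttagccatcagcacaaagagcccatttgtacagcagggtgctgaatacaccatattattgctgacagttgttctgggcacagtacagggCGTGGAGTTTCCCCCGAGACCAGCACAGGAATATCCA

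**Figure D4:**
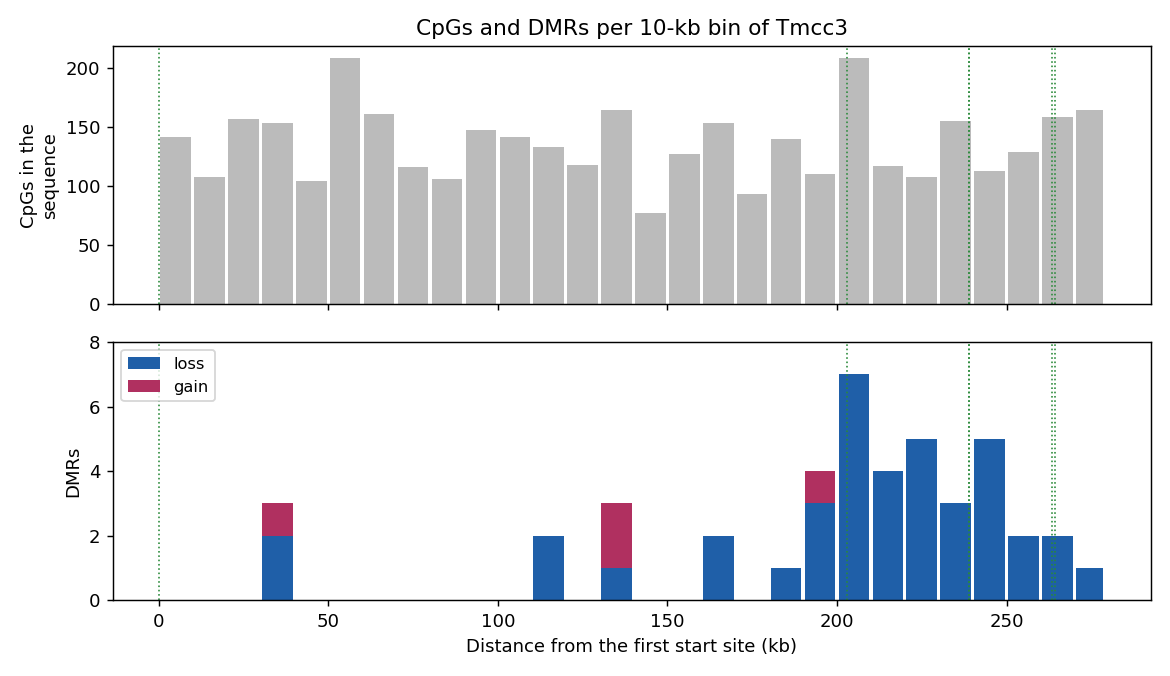
CpGs in the sequence (upper bars) and listed DMRs (lower bars, losses in blue, gains in red) per 10-kb bin of *Tmcc3*, by distance from the first start site (x axis, kb). Dotted green lines are the 6 start sites. The bin from 200 to 210 kb has 7 DMRs and 208 CpGs, while the bin from 50 to 60 kb has as many CpGs and no DMR.

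DMRs of *Tmcc3* were short and often close together. Their median width was 141 bp, and they covered 7251 bp or 2.60% of the gene. The median gap between neighbours was 1684 bp, and 18 of the 43 gaps were under 1 kb. Neighbours had the same direction in 38 of 43 pairs. Since 40 of the 44 members were losses, most pairs would match in any order. At least 5 CpGs were found in 40.9% of the members, beside 15.7% of all listed DMRs and 25.6% of all losses. The GC content of the 200 bp around the midpoint ranged from 36.0% to 55.0%, with a median of 47.8% beside 48.5% over the list. A stretch that met the island criteria of at least 200 bp, 50% GC and a ratio of observed to expected CpGs above 0.6 overlapped 9 of the 44 (20.5%), and 13.8% of all DMRs.

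Short strings that known endothelial factors bind were counted on both strands in 200 bp around each midpoint. The AP-1 string TGANTCA was present in 6 of 44 windows (13.6%, 95% Wilson interval 6.40% to 26.7%), beside 6.54% of the windows of all listed DMRs. The KLF string GGGNGTGG was present in 15.9% (7.93% to 29.4%), beside 6.71%. The ETS string CNGGAAG was present in 4 windows (9.09%, 3.59% to 21.2%), beside 19.6%. Of GATA factors the string AGATAA was found in 15.9% (7.93% to 29.4%), beside 11.7%. The TEAD string, CATTCC, was found in 15.9% (7.93% to 29.4%), beside 11.7%. For FOX factors, TGTTTNC was found in 27.3% (16.3% to 41.8%), beside 19.99%. For SOX factors, ACAANG was found in 40.9% (27.7% to 55.6%), beside 36.4%. The hypoxia-response string, ACGTG, was found in 18.2% (9.51% to 31.96%), beside 15.2%. With 44 windows the intervals are wide. Only the KLF interval left out the share of the list. No correction was made for the number of strings, so enrichment was not tested. In the windows of all losses the shares were 6.84% for AP-1, 7.49% for KLF, 20.3% for ETS and 13.8% for GATA. They were 11.2% for TEAD, 21.6% for FOX, 36.4% for SOX and 15.5% for the hypoxia-response string. Counted in the DMR itself, the KLF string was in 4 of 44 (9.09%), beside 4.94% of all DMRs. The interval for 4 of 44, 3.59% to 21.2%, includes that share, so KLF did not stand out there. Occurrences of different strings may share bases, and a string is not a site that a factor was seen to bind.

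Outside the gene, the nearest listed DMRs were gains. Upstream, the first was 235 kb away at chr10:94077249-94077561, in *Fgd6*, a guanine nucleotide exchange factor for CDC42, where infant EC had 15.2% and young adult EC 43.1%. Downstream, a DMR at chr10:94606239-94606464, 15.4 kb after the last exon, went from 68.1% to 90.3%. The 500 kb on either side held 12 DMRs, 1.2 per 100 kb, of which 3 were losses. Those 3 lay in *Usp44*, which encodes a deubiquitinase (2 losses, medians 64.8% and 28.0%), and in *Vezt*, which encodes the junction protein vezatin (73.3% and 35.5%). *Metap2*, *Cep83* and the semaphorin receptor gene *Plxnc1* had 1 gain each, and *Fgd6* had 2. *Nr2c1*, *Ndufa12*, *Gm4792*, *Mir331*, *Cep83os* and *Mir7211*, a microRNA gene within intron 4 of *Tmcc3* on the other strand, had none. The nearest listed loss outside the gene lay 296 kb upstream, in *Vezt*, and none lay within 500 kb downstream.

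By number of losses, *Tmcc3* was in place 11 of 26182 genes. Above it were *Kitl*, the gene of the KIT ligand, with 44 losses and *Aff3* with 43. Below it were *Ankrd33b* with 38 and *Msi2*, an RNA-binding protein gene, with 36. *Tmcc3* is a long gene. With 14.3 losses per 100 kb and 10.5 per 1000 CpGs, it was in places 125 and 132 of the 474 genes with more than 5 DMRs, whose medians were 5.28 and 4.17. *Kitl* had 52.0 losses per 100 kb and kept more methylation, with medians of 76.9% and 40.98%. Among 143 genes with at least 10 DMRs and at least 90% losses, those nearest to *Tmcc3* in both medians were *Nkd1*, an inhibitor of Wnt signalling (15 losses, 64.6% and 26.01%), *Ift140*, a gene of ciliary transport (13 losses and 1 gain, 64.4% and 23.5%), and *Pitpnc1*, a phosphatidylinositol transfer gene (51 losses, 64.6% and 26.5%). Their distances from the medians of *Tmcc3* were 1.09, 1.39 and 1.58 points.

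Of 26 listed genes of ER proteins and of 14-3-3 proteins, 9 (34.6%) held at least 1 DMR, beside 17.6% of all genes. Gene length was not taken into account in these shares. The list was compiled with earlier results of these data known. Its 37 DMRs comprised 32 losses (86.5%) and 5 gains, with a median difference of -35.1 points. A single gene, *Tmcc2*, gave 21 of the losses, and without it 11 of 16 DMRs (68.8%) were losses, with a median of -27.8 points. Of all DMRs inside genes, 57.5% were losses, and the median difference over gains and losses was -23.1 points.

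*Tmcc2* encodes a protein of the same family as TMCC3. Its gene on chromosome 1 is 35.1 kb long, and its 21 DMRs, all losses, ran over 31.3 kb of it. Median methylation was 73.5% in infant EC and 30.8% in young adult EC, with losses of 23.0 to 64.1 points. The largest was at chr1:132366290-132366358, from 72.0% to 7.94%. *Tmcc2* had 59.9 losses per 100 kb and *Tmcc3* had 14.3. The third gene of the family, *Tmcc1*, had 2 losses in a gene of 174764 bp, from 49.98% to 29.8% and from 56.5% to 27.7%.

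Among the genes that shape ER tubules, *Reep3* had 2 losses and 1 gain, *Reep1* and *Reep2* had 1 gain each and *Rtn1* had 2 gains. The gain in *Reep2* went from 32.8% to 63.9%, and the larger one in *Rtn1* from 54.9% to 91.1%. *Rrbp1*, which encodes a ribosome-binding protein of the ER, had 1 loss, from 73.6% to 26.4%. The atlastin genes *Atl1*, *Atl2* and *Atl3*, whose products bind TMCC3, and *Lnpk*, which encodes the junction protein lunapark, had no DMR. Of the 7 genes for 14-3-3 proteins, *Ywhab* and *Ywhaz* had 3 losses each. These 6 DMRs had differences of -32.6 to -38.8 points, and the others, *Sfn*, *Ywhae*, *Ywhag*, *Ywhah* and *Ywhaq*, had none.

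**Figure D5:**
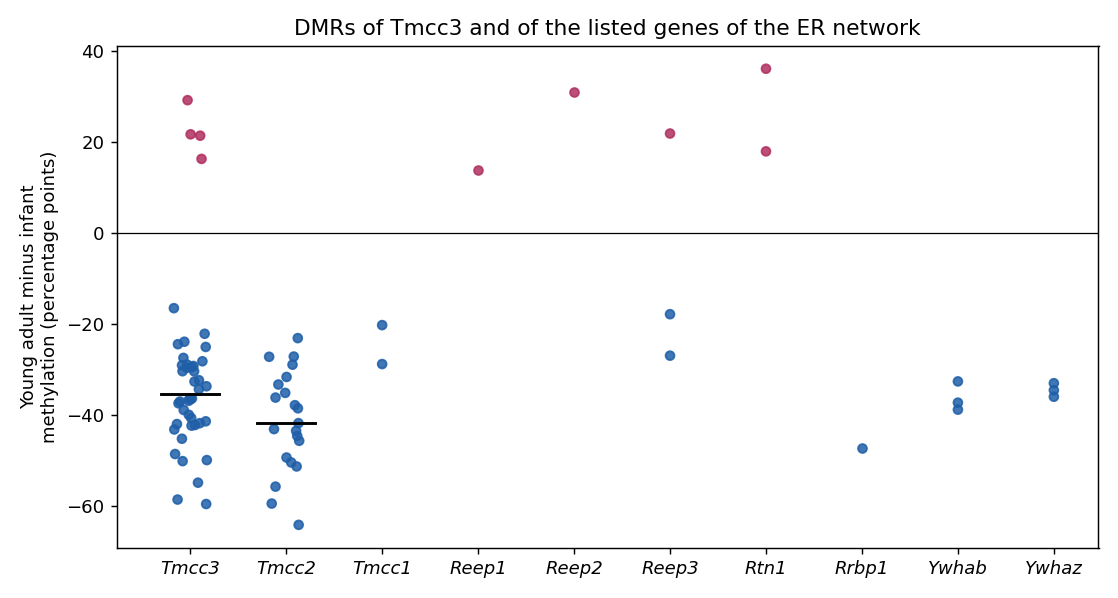
Difference between young adult and infant means (y axis, percentage points) of each DMR of *Tmcc3* and of the 9 listed genes that held a DMR. Blue points are losses, red points gains, and black bars medians of genes with more than 5 DMRs. *Tmcc2* has 21 points, all between -23.0 and -64.1, and *Reep1*, *Reep2* and *Rtn1* have gains alone.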

How the data were processed

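T-WGBS data of sorted lung EC from 3 infant and 3 young adult samples were used, with 3 sequencing libraries per sample. The authors trimmed reads with SeqPrep, aligned them to converted mm10 with BWA 0.6.1, marked duplicates with Picard, used bases of Phred 20 or more without the 9 bases at tagmentation ends, and called DMRs in R 3.2.2 with unsmoothed bsseq data. A DMR needed at least 3 consecutive CpGs, each covered at least 8-fold in at least 2 samples per group and at p under 0.05 in the authors' t-test, and a mean difference of at least 10%. The values the authors deposited are fractions, the mean methylation of a DMR in each age group, and were converted to percent here. Values per sample were not analysed here, so the DMRs carry no test, no replicate error and no depth. The list's column of directions was not used.

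DMRs were assigned to genes by midpoint, with 45756 curated RefSeq transcripts of 26182 genes on GRCm38.p6, in Python 3.11.15 (pandas 2.3.3, statsmodels 0.14.6). The first and last positions were CpGs in 18333 of 18333 DMRs. Scripts were tested on simulated data. Wilson intervals are at 95% and cover counting error over DMRs only. The members, lists, strings and named genes were chosen with earlier results of these data known. Named genes were *Tmcc3*, listed ER and 14-3-3 genes holding a DMR, genes within 500 kb, the 2 genes above and below it by losses, and the 3 nearest in both medians. The members were all given, and the listed genes without a DMR that are named lie outside this rule. Alternatives changed the assignment to the gene, the minimum difference, the minimum of CpGs, merging within 500 bp, weighting by CpGs and the intron numbering.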

Additional observations from a re-analysis of the deposited data

How the results depend on the processing

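Of 51 values of the 6 summary measures and the rank of *Tmcc3* under alternatives, 43 kept within 5 points, the Wilson interval or 1.5 times the value reported, and 8 did not. The 43 include 2 alternatives that could not differ, any overlap with the gene and the gene body plus 10 kb. Both returned the same 44 DMRs, since the nearest DMR outside lay 15.4 kb away. With DMRs whose nearest promoter in the authors' list was a *Tmcc3* transcript (40 DMRs), 92.5% lay in intron 2. With differences of at least 30 points, 28 DMRs were left and 100% were losses. The largest gain of the gene was 29.2 points, so this limit removed every gain. Over the list, 5152 of the 6438 DMRs with such differences were losses. With at least 5 CpGs, 18 were left and the young adult median was 19.9%. Merging DMRs of the same direction within 500 bp left 32 of 44, which counted as kept. The rank was not recomputed on merged DMRs. Numbered on NM_172051, its intron 1 held 61.4%. By losses per 100 kb and per 1000 CpGs the rank was 125 and 132 among 474 genes. Of 8 string shares, that for FOX moved to 13.6% when counted in the DMR itself, beside 15.9% of all DMRs. It was thus below the share of the list, while in windows it was above it. Leaving out a replicate was not run, because the list holds group means. No paired analysis was run, because the labels pair no infant sample with a young adult sample. The depth behind each mean is unknown, which limits every comparison of levels between DMRs.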
